A study of Mus musculus with 5 samples.

Results

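The 10 genes described here encode the kinase complex mTORC1, its regulators and the proteins through which it controls translation: Mtor, Rptor, Deptor, Tsc1, Tsc2, Sesn2, Ddit4, Rps6kb1, Eif4ebp1 and Larp1. They were taken by gene symbol from a table of 55573 genes, and each symbol matched 1 row. Their RNA levels were determined by RNA-seq of Neuro-2A cells (N2A, derived from a mouse neuroblastoma) after transfection with 60 pmol of a commercial control siRNA (siCtl, 2 libraries, replicates 1 and 3) or with the same amount of an siRNA against Upf1 (siUpf1, 3 libraries, replicates 1, 2 and 3). Upf1 encodes the RNA helicase on which nonsense-mediated mRNA decay (NMD) depends. The study combined the response to this knockdown with binding of RNAs to phosphorylated UPF1 to define NMD targets in N2A cells. All 5 libraries come from 1 cell line grown in serum-containing medium, and only polyadenylated RNA was sequenced, so the values are steady-state mRNA levels and say nothing of mTORC1 kinase activity or of translation.

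mTORC1 is a protein kinase complex on the lysosome that couples cell growth to amino acids, growth factors, energy and stress. The TSC1-TSC2 complex holds it off by acting on the GTPase RHEB, and sestrins and REDD1 (the product of Ddit4) are stress-induced brakes. Active mTORC1 phosphorylates the S6 kinases, the 4E-BPs and LARP1, and thereby promotes translation of TOP mRNAs, which start with a cytosine followed by a run of pyrimidines and encode ribosomal proteins and translation factors. LARP1 binds these mRNAs at their start, and is known both to repress their translation and to stabilise them.

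The libraries held 20402205 to 27717594 assigned reads, and the lowest total was that of siUpf1 replicate 2. Upf1 had 5217 and 5243 normalised read counts in siCtl and 2403, 2496 and 2449 in siUpf1, which is 46.8% of the siCtl level (log2 fold change -1.10, SE 0.051, DESeq2 adjusted p = 7.09e-101). Normalised read counts are counts divided by DESeq2's size factor for the library. Of the markers of sympathetic neuroblastoma, 12 were tested, and 7 of these were called higher and 2 lower in siUpf1, where the shares over all tested genes were 22.0% and 22.9%. Of 10 markers of other cell types, 9 had a read and 7 could be tested, with 0 called higher and 2 lower (Pdgfra and Pecam1). They summed to 39.1 to 40.9 CPM (counts scaled to the library total) in siCtl and 34.8 to 36.7 in siUpf1. Ptprc (leukocytes) and Alb (hepatocytes) had at most 5 reads in a library, and Krt5 (keratinocytes) had 0. The part of such shifts in the values below was not tested. In bulk RNA, fewer cells that express a gene and less RNA of it per cell cannot be told apart.

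After Upf1 knockdown, 9 of the 10 mTORC1 genes lay within 0.25 of their siCtl level on the log2 scale, against 44.8% of all tested genes. That share was not matched for count, and the 0.25 limit was not part of the planned tests. The remaining gene, Sesn2, fell to 52.0% of its siCtl level. Smaller falls were called for Tsc1, to 86.2%, and Eif4ebp1, to 87.6%. The other 7 genes were not called in either direction. The threshold for a call was an adjusted p under 0.05 in DESeq2's Wald test, fitted to all genes, with Benjamini-Hochberg adjustment over the 15191 genes that entered it. All 10 members were tested. Of them, 0 were called higher, where the background over all tested genes was 22.0%, and 3 were called lower, where the background was 22.9%. In either direction the background was 44.9%, and 5 of the 10 had an unadjusted p under 0.05. Well-counted genes were called more often. Of the 6990 tested genes that averaged at least 700 normalised counts, as all members did, 63.7% were called in either direction. The backgrounds given beside the lists below are over all tested genes and were not matched for count. With edgeR's quasi-likelihood test, whose background was 54.6%, 2 members were called higher and 3 lower. The siCtl and siUpf1 libraries did not overlap for 7 of the 10 members, close to the 69.4% of all tested genes for which this was so. The median log2 fold change was -0.04 over the members and -0.002 over all tested genes.

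**Figure D1:**
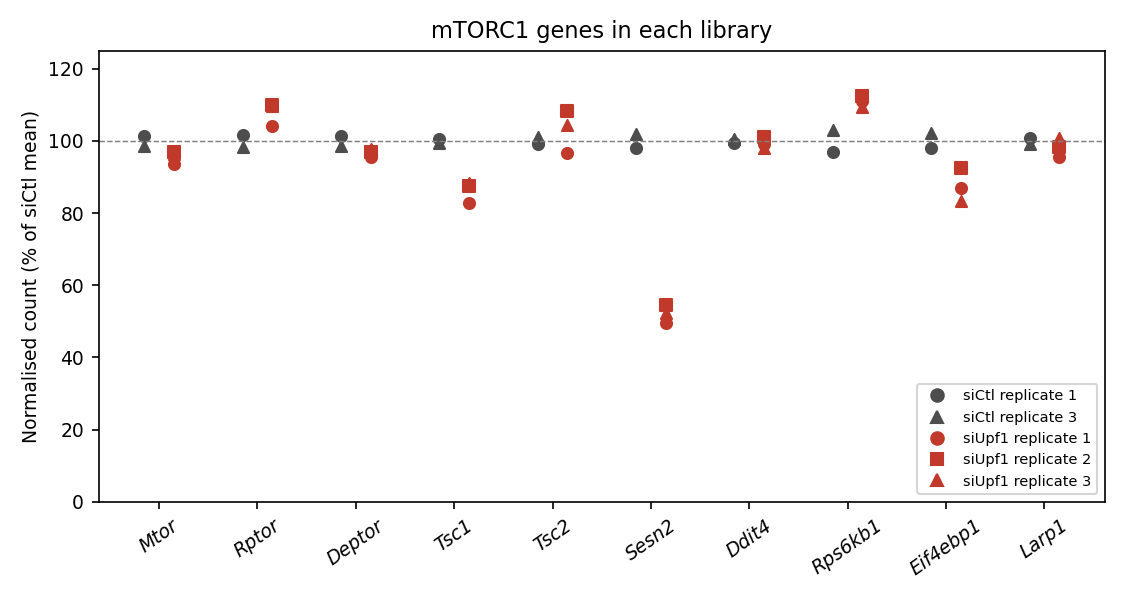
Normalised read count of each of the 10 mTORC1 genes in each library, as a percentage of that gene's mean over the siCtl libraries. Grey symbols are siCtl and red symbols siUpf1, and the symbol shape gives the replicate number. All siUpf1 libraries lie well below siCtl for Sesn2, and slightly below it for Tsc1 and Eif4ebp1.

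The members were well covered, with 582 to 18904 raw counts per library and a coefficient of variation between replicates of 0.857% to 5.84%. Because gene length sets how many reads an mRNA yields, levels were compared between genes as CPM divided by the kilobases of exon (RPKM). Exons were merged over all annotated isoforms of a gene. On the RPKM scale Eif4ebp1 was highest, at 137 ± 5.11 RPKM in siCtl (SD, n = 2). Larp1 followed at 97.0 ± 0.300 RPKM and Ddit4 at 92.8 ± 1.6 RPKM, with Larp1 higher within each library although the ranges of these neighbours over the 5 libraries overlapped. Sesn2 lay below them at 53.3 ± 1.91 RPKM and Mtor at 18.9 and 19.2 RPKM, each apart from its neighbours in every library. Rptor (11.2 RPKM) was likewise above Tsc2 (10.4 RPKM) within each of the 5 libraries, with ranges that just touched. Tsc1 (7.32 RPKM) was above Rps6kb1 (5.94 RPKM) in 2 of the 5 libraries, so this pair had no fixed order. Deptor was lowest, at 3.37 ± 0.035 RPKM. Thus mRNAs of the translational targets and stress brakes were more abundant per length than those of the kinase complex and of the TSC proteins, except for Rps6kb1. In siUpf1 the order of the group means was the same except that Rps6kb1 (6.69 RPKM) stood above Tsc1 (6.40 RPKM). The order rests on the merged exon length. For some genes this exceeds the length of the representative mRNA, the complete isoform with the longest coding sequence. It was 13471 against 6594 bases for Rptor and 10109 against 8564 for Mtor. The order of neighbours, Mtor and Rptor included, can therefore depend on the length used. The same limit holds for the paralog shares below.

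The core of the complex comprises the kinase mTOR and its substrate-recruiting partner Raptor. Mtor (ENSMUSG00000028991.15, chromosome 4, 148448611 to 148557683, plus strand, GRCm38) had 4922 and 4785 normalised read counts in siCtl and 4539, 4708 and 4682 in siUpf1. All siUpf1 values were lower, by little. The log2 fold change was -0.06 (SE 0.048, DESeq2 adjusted p = 0.287), with a 95% interval for the siUpf1 level of 89.7% to 102.1% of siCtl. Rptor (ENSMUSG00000025583.15, chromosome 11, 119602905 to 119899576, plus strand) had 3864 and 3735 normalised read counts in siCtl and 3952, 4176 and 4167 in siUpf1. All siUpf1 libraries were above siCtl, yet the difference missed the threshold (log2 fold change 0.11, SE 0.052, DESeq2 adjusted p = 0.073). Rptor was called higher by edgeR (adjusted p = 0.040), after scaling to total counts (DESeq2 adjusted p = 0.038) and without siUpf1 replicate 1 (DESeq2 adjusted p = 0.040). With each library's trend with length and GC content removed, its log2 fold change was -0.01. Mtor was called lower with that removal, at a log2 fold change of -0.15 (DESeq2 adjusted p = 9.43e-04).

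Deptor, which encodes an inhibitor bound to the kinase, was the least abundant member. Deptor (ENSMUSG00000022419.16, chromosome 15, 55112317 to 55259271, plus strand) had 764 and 744 normalised read counts in siCtl and 720, 731 and 737 in siUpf1. The siUpf1 values lay just under the siCtl values, and the fitted siUpf1 level had a 95% interval of 85.5% to 109.3% of siCtl (log2 fold change -0.05, SE 0.090, DESeq2 adjusted p = 0.709).

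Other subunits and assembly factors of mTORC1 and mTORC2 formed a list of 9 genes, of which 8 were tested. The test called 4 higher (50%) and 2 lower (25%), where the backgrounds were 22.0% and 22.9%, and the median log2 fold change was 0.21, against -0.002 over all tested genes. The higher genes were Telo2 (0.46, SE 0.071) and Tti1 (0.27), which encode chaperone partners of mTOR, Rictor (0.33, SE 0.080), the mTORC2 scaffold, and Mlst8 (0.31, SE 0.085), a subunit shared by both complexes. The call for Rictor was lost without siCtl replicate 1, siCtl replicate 3 or siUpf1 replicate 3 (DESeq2 adjusted p from 0.099 to 0.236), and that for Mlst8 without siCtl replicate 1 (DESeq2 adjusted p = 0.072). Akt1s1, which encodes the mTORC1 inhibitor PRAS40, fell. It had 2671 and 2713 normalised read counts in siCtl and 1872, 1939 and 1879 in siUpf1 (log2 fold change -0.51, SE 0.059, DESeq2 adjusted p = 9.78e-17). Tti2, the other lower gene, encodes a further chaperone partner and lost its call without siCtl replicate 3, siUpf1 replicate 1 or siUpf1 replicate 3 (DESeq2 adjusted p from 0.063 to 0.315).

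Of the TSC pair, TSC1 stabilises the complex and TSC2 carries the activity that switches off RHEB. Tsc1 (ENSMUSG00000026812.16, chromosome 2, 28641228 to 28691167, plus strand) had 2199 and 2173 normalised read counts in siCtl and 1809, 1913 and 1928 in siUpf1. The groups did not overlap, and Tsc1 was called lower (log2 fold change -0.22, SE 0.062, DESeq2 adjusted p = 0.0018). That call was lost without siCtl replicate 1, where the adjusted p was 0.058 at a log2 fold change of -0.21. Tsc2 (ENSMUSG00000002496.10, chromosome 17, 24595816 to 24632630, minus strand) had 2491 and 2540 normalised read counts in siCtl and 2429, 2726 and 2628 in siUpf1. Its siUpf1 libraries fell on either side of siCtl, and it was not called (log2 fold change 0.04, SE 0.063, DESeq2 adjusted p = 0.621, interval 94.6% to 112.2% of siCtl). Whether Tsc1 and Tsc2 differ in their change was not tested. Tbc1d7, the third TSC subunit, was not called (log2 fold change 0.32, SE 0.160, DESeq2 adjusted p = 0.090), and Rheb, the GTPase they control, fell by 0.25 on the log2 scale (SE 0.060, DESeq2 adjusted p = 1.36e-04).

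Rheb and Tbc1d7 belong to a list of 18 genes for growth factor and energy signals to TSC, of which 16 had reads and were tested. The test called 1 higher and 11 lower, where the backgrounds were 22.0% and 22.9%, and the median log2 fold change was -0.17. Prkag2 (-0.82, SE 0.099), which encodes a regulatory subunit of the energy sensor AMPK, fell most. Prkab2 (0.30, SE 0.063), another AMPK subunit, was the gene called higher. Without siCtl replicate 3 the list had 7 calls, 6 of them lower, and without siCtl replicate 1 it had 6 lower.

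Sesn2 was the member with the largest change. Sestrin 2 binds leucine and the GATOR2 complex, is induced by stress and restrains mTORC1 when amino acids are scarce. Sesn2 (ENSMUSG00000028893.8, chromosome 4, 132492032 to 132510501, minus strand) had 4582 and 4765 normalised read counts in siCtl and 2310, 2545 and 2438 in siUpf1. Every siUpf1 library was far below both siCtl libraries. The log2 fold change was -0.94 (SE 0.057, DESeq2 adjusted p = 3.02e-60). Of all tested genes, 485 (3.19%) had a lower one. It lay between -0.98 and -0.91 under all 12 alternatives.

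Neither paralog was called lower. Sesn1 had 588 and 562 normalised read counts in siCtl and 852, 768 and 847 in siUpf1, and was called higher (log2 fold change 0.52, SE 0.096, DESeq2 adjusted p = 4.29e-07). Sesn3 was not called (0.06 on the log2 scale, SE 0.084, DESeq2 adjusted p = 0.591). On the per-length scale Sesn2 supplied 86.5% and 87.2% of the summed sestrin level in siCtl and 70.5%, 74.4% and 72.0% in siUpf1. The share of Sesn1 rose from 9.34% ± 0.498 (SD, n = 2) to 21.4% ± 1.6 (SD, n = 3), and the groups did not overlap. The summed level was 60.1 and 62.6 RPKM in siCtl and 38.8, 38.4 and 39.4 RPKM in siUpf1, lower in every siUpf1 library. With 2 libraries against 3 an exact permutation test cannot give a p under 0.1, and these shares are given without a test.

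**Figure D2:**
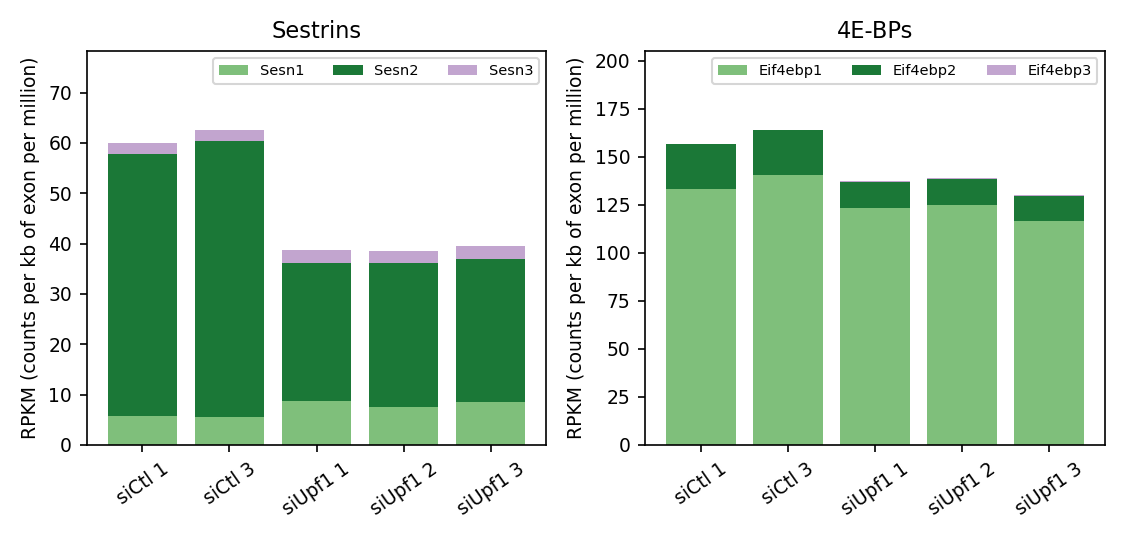
Level of the sestrin genes (left) and the 4E-BP genes (right) in each library, as RPKM, stacked within a bar. The summed sestrin level is 60.1 and 62.6 in siCtl and 38.4 to 39.4 in siUpf1, and Sesn2 makes up most of each bar. The summed 4E-BP level is 157 and 164 in siCtl and 130 to 139 in siUpf1.

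Ddit4 encodes REDD1, which activates TSC under hypoxia, glucocorticoids and other stresses. Ddit4 (ENSMUSG00000020108.4, chromosome 10, 59949669 to 59951834, minus strand) had 4084 and 4137 normalised read counts in siCtl and 4074, 4159 and 4026 in siUpf1. The groups overlapped, and the siUpf1 level was 99.4% of siCtl with an interval of 93.0% to 106.2% (log2 fold change -0.009, SE 0.049, DESeq2 adjusted p = 0.904). Intervals of Ddit4 and Sesn2, both stress-induced brakes on mTORC1, did not overlap on the log2 scale (-0.10 to 0.09 and -1.06 to -0.83). Its paralog Ddit4l had 0 reads in all 5 libraries.

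Transcription factors known to control Sesn2 or Ddit4, with other targets of theirs, formed a list of 16 genes. The test called 3 higher and 10 lower, where the backgrounds were 22.0% and 22.9%, and the median log2 fold change was -0.30. Atf4, the effector of the integrated stress response, had 31141 and 32049 normalised read counts in siCtl and 25050, 26188 and 24338 in siUpf1 (log2 fold change -0.33, SE 0.041, DESeq2 adjusted p = 1.75e-14). Trib3 (-0.69, SE 0.047), an ATF4 and CHOP target, and Nqo1 (-1.47, SE 0.123), an NRF2 target, fell most. The 3 higher genes were Hif1a (0.79, SE 0.063), the oxygen-regulated factor, Tsc22d3 (0.44, SE 0.062), a glucocorticoid target, and Nupr1 (0.16), a stress-induced chromatin protein. Vegfa (0.10), a HIF1 target, was not called.

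ATF4 binds an element written TGATGNAA, which was searched on both strands of the RefSeq promoter windows (GRCm38.p6, 250 bases before to 50 after each annotated start). Windows were found for 8 of the 10 members. The element was present in 0 of these 8, in 2.78% of tested genes with a window and in 4 of the 14 stress genes with a window (Asns, Chac1, Nupr1 and Trib3). In Asns, which encodes asparagine synthetase, Chac1, a glutathione-degrading enzyme, and Trib3, a pseudokinase, the elements (in capitals, in the gene's own 5′ to 3′ direction, with flanks) show what the search found in ATF4 targets and did not find near the start of Sesn2 or Ddit4.
Asns: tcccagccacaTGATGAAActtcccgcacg
Chac1: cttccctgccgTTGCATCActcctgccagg
Trib3: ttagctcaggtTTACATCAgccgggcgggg
Asns (-0.27) and Trib3 fell, and Chac1 had a log2 fold change of 0.04 and was not called. Nupr1, whose element is not shown, was called higher. The Trib3 element began at base 15 after the annotated start. Elements outside these windows were not examined.

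Sesn1 and Sesn3 belong to a list of 28 genes for amino acid sensing at the lysosome, all of them tested. The test called 6 higher (21.4%) and 7 lower (25%), shares near the backgrounds of 22.0% and 22.9%, and the median log2 fold change was -0.02. Rragd (0.60, SE 0.055), which encodes a Rag GTPase, and Sesn1 rose most. Fnip1 (-0.73, SE 0.086) and Flcn (-0.70, SE 0.075), which encode partners in the complex that activates RagC and RagD, fell most. Fnip2 (0.51, SE 0.070), the paralog of Fnip1 in that complex, was called higher.

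Of the mTORC1 substrates, S6 kinase 1 phosphorylates ribosomal protein S6, and 4E-BP1 blocks the cap-binding protein eIF4E until it is phosphorylated. Rps6kb1 (ENSMUSG00000020516.15, chromosome 11, 86498871 to 86544805, minus strand) had 1257 and 1337 normalised read counts in siCtl and 1442, 1458 and 1420 in siUpf1. All siUpf1 values were above siCtl, and the change missed the threshold (log2 fold change 0.15, SE 0.071, DESeq2 adjusted p = 0.074). edgeR called it higher, with an adjusted p of 0.018. Its paralog Rps6kb2 was not called (-0.03 on the log2 scale, SE 0.10, DESeq2 adjusted p = 0.825), and Rps6kb1 supplied 55.6% and 56.7% of their summed per-length level in siCtl and 59.0%, 59.3% and 59.5% in siUpf1.

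Eif4ebp1 (ENSMUSG00000031490.6, chromosome 8, 27260329 to 27276674, plus strand) had 7436 and 7749 normalised read counts in siCtl and 6602, 7031 and 6325 in siUpf1. The groups did not overlap, and it was called lower (log2 fold change -0.19, SE 0.051, DESeq2 adjusted p = 6.23e-04). Its call was lost without siCtl replicate 3, at a log2 fold change of -0.16 and an adjusted p of 0.063. The paralog Eif4ebp2 fell from 3389 and 3362 normalised read counts in siCtl to 1902, 1978 and 1841 in siUpf1 (log2 fold change -0.83, SE 0.058, DESeq2 adjusted p = 6.02e-44). Eif4ebp3 had 5 to 15 raw counts per library and was not called. The share of Eif4ebp1 in the summed per-length level was 85.1% and 85.6% in siCtl and 89.9%, 89.8% and 89.5% in siUpf1, while the sum went from 161 ± 5.26 RPKM (SD, n = 2) to 136 ± 4.80 RPKM (SD, n = 3). Thus both abundant 4E-BP mRNAs were lower.

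**Figure D3:**
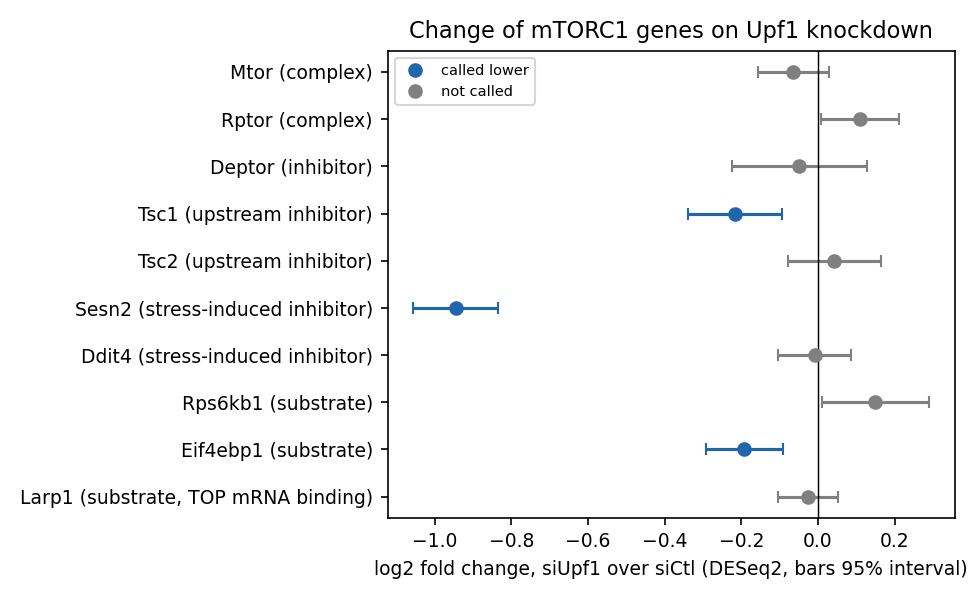
Log2 fold change of siUpf1 over siCtl for the 10 mTORC1 genes, from DESeq2, with each gene's role in brackets. Bars are 95% intervals, blue points were called lower and grey points were not called. Sesn2 stands apart at -0.94, and the other 9 lie between -0.22 and 0.15.

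The other substrates and factors of cap-dependent initiation formed a list of 21 genes, with 2 called higher, 10 lower and a median log2 fold change of -0.12, where the backgrounds were 22.0% and 22.9%. Pdcd4 (-0.99, SE 0.105), which encodes an inhibitor of the helicase eIF4A and is degraded after S6 kinase phosphorylation, and Eif4ebp2 fell most. Ulk1 (0.37, SE 0.076), the autophagy kinase that mTORC1 inhibits, and Larp1b (0.26, SE 0.075) rose.

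Larp1, the TOP mRNA binding protein, was the most highly counted member. Larp1 (ENSMUSG00000037331.15, chromosome 11, 58009064 to 58062034, plus strand) had 16842 and 16577 normalised read counts in siCtl and 15943, 16423 and 16851 in siUpf1. The groups overlapped, and the siUpf1 level was 98.2% of siCtl with an interval of 93.0% to 103.6% (log2 fold change -0.03, SE 0.040, DESeq2 adjusted p = 0.635). With the trend with length and GC content removed it was called lower at a log2 fold change of -0.07 (DESeq2 adjusted p = 0.0497). Larp1b, a paralog, supplied 5.26% and 5.54% of their summed per-length level in siCtl and 6.96%, 6.48% and 6.13% in siUpf1. These shares depend on the length used. The merged exons of Larp1b span 8366 bases and its representative mRNA 2497, against 6829 and 6617 for Larp1, so scaling by mRNA length would give Larp1b a larger share. The call for Larp1b was lost without siCtl replicate 1 (DESeq2 adjusted p = 0.076).

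The TOP mRNAs that LARP1 and mTORC1 act on were lower as a group. Of 79 genes of cytosolic ribosomal proteins, all tested, DESeq2 called 66 lower and 2 higher. Of 17 other TOP mRNAs it called 16 lower and 0 higher, where its backgrounds were 22.9% and 22.0%. The median log2 fold changes were -0.28 and -0.39. edgeR gave the same counts for both lists, and over all 15368 genes it tested called 4172 lower and 4220 higher. Together the ribosomal protein genes took 42514 to 44286 CPM in siCtl and 35185 to 36284 CPM in siUpf1. The other TOP mRNAs took 19787 to 20239 CPM in siCtl and 14901 to 15584 CPM in siUpf1.

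Rps6, whose protein is the best-known substrate of the S6 kinases, changed most among them. It had 8229 and 8544 normalised read counts in siCtl and 3435, 3505 and 3201 in siUpf1, or 40.3% of siCtl (log2 fold change -1.31, SE 0.051, DESeq2 adjusted p = 5.46e-141). Every siUpf1 library was far below siCtl. Rps20 (-0.63, SE 0.050) was the next lowest. Among the other TOP mRNAs, Eef1b2 (-0.58, SE 0.044), an elongation factor subunit, and Npm1 (-0.58, SE 0.043), the nucleolar protein nucleophosmin, fell most, and the nuclear import factor Ipo7 (0.03, unadjusted p = 0.607 in DESeq2) was not called. Fau (0.49, SE 0.058), which encodes a ubiquitin-like protein fused to ribosomal protein S30, and Rpsa (0.14, SE 0.051) were the ribosomal protein genes called higher, and Rpsa lost its call without siCtl replicate 1 (DESeq2 adjusted p = 0.336) or siUpf1 replicate 2 (DESeq2 adjusted p = 0.120). Ribosomal protein genes have many near-identical processed pseudogenes, so reads can be split or discarded and their counts are uncertain.

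**Figure D4:**
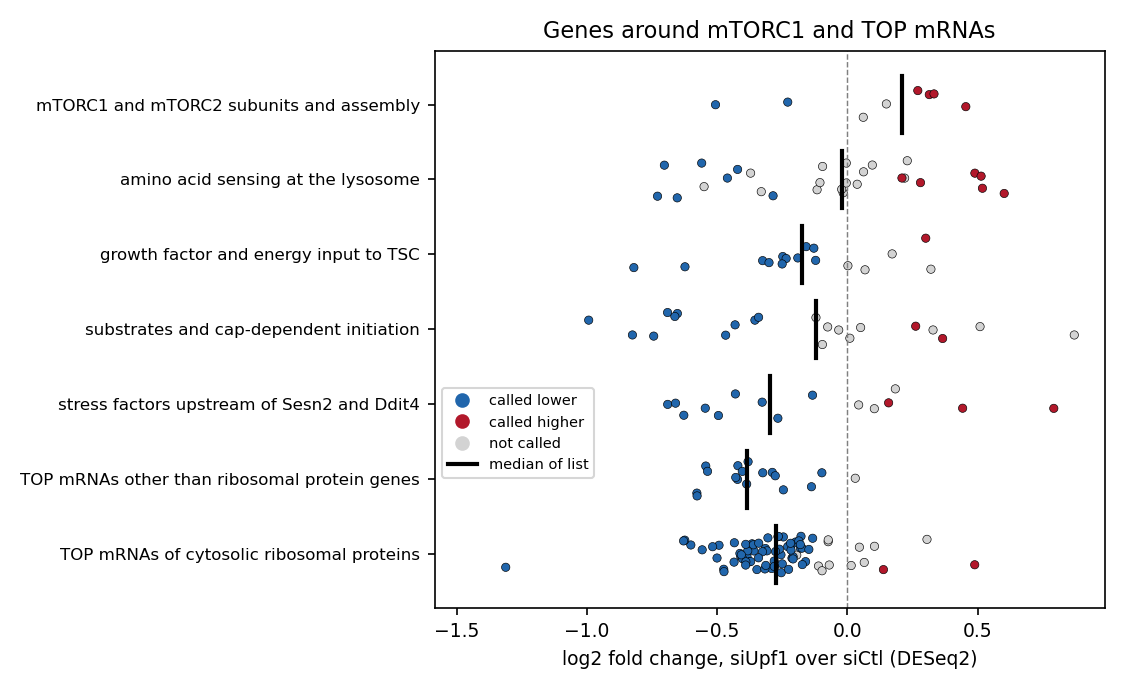
Log2 fold change of siUpf1 over siCtl for each tested gene of the 7 lists around mTORC1, from DESeq2. Blue points were called lower, red points higher and grey points neither, and the black bar is the median of the list. Nearly all points of the TOP mRNA lists lie left of 0, with medians of -0.28 and -0.39, and Rps6 is the leftmost of them at -1.31.

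TOP mRNAs are recognised by their first bases. RefSeq windows from 5 bases before the annotated start are shown for Rps6, for Fau, which moved the other way, for 3 further genes of these lists with long runs, and for 3 members. Capitals mark a C at the start and the unbroken run of C and T that follows it, where that run has at least 4 bases.
Rps6: cgggcCTCTTTTTCgtgacgcctcc
Fau: cacttCTTCCTCTTTCTTgactcca
Rpl15: gccttCTTCCTTTCCTCTggcggca
Rack1: tctttCTTTTTCTCCacagggtcgt
Eif3f: gctctCTCTCTTTCTCggcaagatg
Larp1: cgccggagccttctgcccggcgcgc
Mtor: ccacctccctggcctagaagacagc
Sesn2: tggtggggatggtgaggagcgccgg
Such a start was present in 0 of the 8 members with a window, in 14 of 58 ribosomal protein genes, in 4 of 11 other TOP genes and in 3.05% of tested genes with a window. Allowing the run to begin up to 3 bases to either side of the annotated start gave 2 of the 8 members (Mtor and Larp1), 24 of 58 ribosomal protein genes, 7 of 11 other TOP genes and 15.0% of tested genes. Many TOP genes had no such start at the annotated position, which can differ from the start that N2A cells use.

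Calls were also counted by the start sequence. Within the TOP lists, 13 of 18 genes with such a start were called lower, and 44 of 51 without it. Outside them, 24.6% of the 309 genes with such a start were called lower and 30.4% higher, against 25.4% and 23.8% of the 10333 genes without it. Rps6 and Fau both start with such a run and had log2 fold changes of opposite sign.

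NMD isoforms and siRNA seed matches were 2 further features counted for the members. Whether either changed mRNA levels here was not tested. An isoform annotated as an NMD target was present in 4 of the 10 members (Rptor 4 isoforms, Tsc1 2, Tsc2 1 and Deptor 1) and in 28.5% of tested protein-coding genes. Of these 4, 0 were called higher, and Tsc1 was called lower. Among tested protein-coding genes with such an isoform 23.1% were called higher and 29.2% lower. The shares for those without were 25.1% and 25.6%. Counts per gene do not separate isoforms. Sesn2 and Ddit4 have 1 annotated transcript each.

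An siRNA can also lower mRNAs that match its seed (bases 2 to 8, in capitals) in their 3′ untranslated region (UTR). The strands of the Upf1 siRNA were as follows.
sense strand: uCAAGGUUccugauaauua
antisense strand: uAAUUAUCaggaaccuuga
The match to the sense strand seed is AACCTTG and that to the antisense strand seed GATAATT. Among the members, the representative 3′ UTR of Deptor held 1 match to the antisense strand and that of Rps6kb1 held 1 match to the sense strand, shown in capitals.
Deptor: ccaggcacatgGATAATTgggacattgca
Rps6kb1: agcaaaaatagAACCTTGagaggctggag
Neither Deptor nor Rps6kb1 was called. Sesn2, Tsc1 and Eif4ebp1, the members called lower, held neither match in their representative 3′ UTRs. Some other genes described above held matches there. Prkag2 (called lower) and Rps6kb2 (not called) held 1 sense strand match each. Eif4ebp2 (called lower) held 1 antisense strand match and Rictor (called higher) held 2. Over all tested mRNAs with an annotated 3′ UTR, 37.7% of the 1176 with a sense strand match were called lower, against 25.5% of those without. For the antisense strand match these shares were 27.8% of 932 and 26.6%. The shares called higher were 21.9% with and 24.9% without a sense strand match, and 28.8% and 24.2% for the antisense strand. Genes with and without a match were not matched for 3′ UTR length or count, and an effect of either seed was not tested.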

How the data were processed

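Polyadenylated RNA of 5 N2A libraries was sequenced with a strand-specific kit. The deposited values are raw read counts per gene, which the authors made by trimming reads, mapping them to GRCm38.p6 with STAR and counting reverse-strand exonic reads with featureCounts (Subread 1.6.4). The submitters' processing notes give STAR 2.7.0f and bcl2fastq 2.19.0. No normalisation or pooling was applied.

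The whole table was fitted with DESeq2 1.42.0 (R 4.3.3; Wald test of group with no other term, size factors by median of ratios, independent filtering, Benjamini-Hochberg adjustment, threshold 0.05), a test taken from the study's methods. Libraries were grouped by their labels. The labels do not say that replicates are separate cultures, so p-values measure the spread between these libraries, which may be technical. The paper describes its blots of N2A cells given these siRNAs as representing independently performed experiments. It does not say which library came from which experiment. Alternatives were edgeR 4.0.16, TMM or total-count size factors, a filter that kept genes with 10 counts or more in 2 or more libraries, no independent filtering, the replicate number as a block, omission of each library, and removal of each library's trend with exon length and GC content (mgcv 1.9.3). Scripts were tested on simulated data.

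The 10 members, the lists and the rule for naming genes were chosen with earlier results of these data known. The rule named the members, Upf1, paralogs and partners of the members, and from each list the 2 largest changes in each direction among called genes that averaged 100 normalised counts or more. Some genes that the rule named are not reported here. Other list genes were named after their values or sequences were seen. Positions, exon lengths and UTRs came from GENCODE M21 (GRCm38; 99.8% of identifiers matched) and promoter windows from RefSeq. Ddit3 had 2 identifiers, of which the 1 with reads was used. PCR duplicates cannot be recognised in counts.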

Additional observations from a re-analysis of the deposited data

How the results depend on the processing

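Across the 12 alternatives, Sesn2 kept its direction and its call. For the 3 members called, 33 of 36 values kept the call and 3 lost it, and 0 reversed. For the 7 members not called, 78 of 84 values stayed so and 6 were called. Members called higher numbered 2 with edgeR, 1 with total-count size factors and 0 to 1 when libraries were left out. Members called lower numbered 5 after removal of the trend with length and GC content, and 2 to 3 when libraries were left out. Over all genes, leaving out a library gave 2393 to 2944 genes called higher and 2374 to 3115 lower.

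The replicate number as a block gave 1957 genes called higher and 1962 lower, 3 calls in the list of subunits and assembly factors, and 5 in the list of growth factor and energy signals. Among the members, Tsc1 lost its call with the block (DESeq2 adjusted p = 0.114), as did Rheb (0.091), Tti2 (0.144), Mlst8 (0.067), Larp1b (0.109) and Rpsa (0.454) among other named genes. Deviations of same-numbered siCtl and siUpf1 libraries correlated at -0.09 and -0.07 over 11898 genes. These values gave no sign of pairing, and a shared day or batch was not tested. The deviations of the 2 siCtl libraries are mirror images of each other, so the 2 correlations are not separate checks. In the block fit, siUpf1 replicate 2, which has no same-numbered siCtl library, does not inform the group difference. When libraries were left out, these lists had 3 to 6 and 7 to 11 calls. For the 28 other named genes called, 321 of 336 values kept the call, 15 lost it and 0 reversed. For the 4 not called, 47 of 48 values stayed so. Under all alternatives, 58 to 68 ribosomal protein genes and 14 to 16 other TOP mRNAs were called lower. No scaling moved the median of all genes by over 0.1 on the log2 scale. With 2 siCtl libraries the control spread is known poorly.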
